A study of Mus musculus with 4 samples.

Results

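The 10 genes described here encode the pathway through which leukaemia inhibitory factor (LIF) acts on mouse embryonic stem cells (ESCs). They were chosen by symbol and comprise the ligand *Lif*, the receptor subunits *Lifr* and *Il6st*, the signalling genes *Jak1*, *Stat3* and *Ptpn11*, the feedback gene *Socs2* and the STAT3 target genes *Socs3*, *Pim1* and *Pim3*. Each of the 10 symbols matched 1 of the 19645 features in the deposited files, of which 17710 carry a symbol, and all 10 had a mean of at least 0.5 FPKM over the libraries and entered the test. FPKM counts fragments relative to transcript length and to the mapped total of the library, so levels can be set side by side between genes. Total RNA of ESCs, freed of ribosomal RNA, gave 2 WT and 2 *Bmal1* KO libraries. The KO cells are 1 clone made with CRISPR-Cas9, with a short deletion that shifts the reading frame of *Arntl*, which encodes the clock protein BMAL1. WT and KO cells were maintained on gelatin in medium with serum and recombinant LIF. The study's methods call the replicates biological, but no source ties them to separate clones, and the labels name neither strain nor separate cultures. A p-value here therefore measures the spread between these libraries, which may be technical. Between libraries FPKM also moves with what else was sequenced. The share of FPKM held by features without a symbol was 26.83% in WT replicate 1, 37.35% in WT replicate 2, 18.96% in KO replicate 1 and 18.14% in KO replicate 2, so WT replicate 2 stood apart. The median FPKM was 2.317 in both WT libraries, 2.465 in KO replicate 1 and 2.412 in KO replicate 2. The part of this composition in the results was not tested directly, and values under other scalings of the libraries were computed as alternatives.

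LIF binds a receptor made of LIFR and gp130, the product of *Il6st*. The kinase JAK1 is attached to the receptor and phosphorylates STAT3, which enters the nucleus and activates transcription. The phosphatase SHP2, encoded by *Ptpn11*, leads from the same receptor to RAS and ERK. SOCS proteins act as feedback inhibitors of cytokine receptors, and SOCS3 binds gp130 and JAK. STAT3 activity maintains self-renewal of mouse ESCs in serum, and *Socs3*, *Pim1* and *Pim3* are well-known genes that LIF induces in these cells.

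The control regions of the target genes were examined first, since STAT3 acts on the target genes through DNA. RefSeq promoter windows on GRCm38.p6, which run from 250 bases before to 50 bases after a transcription start, were at hand for 9 of the 10 genes, with 11 windows in all because *Lifr* and *Pim1* have a pair each. *Socs2* was not among them. Windows were searched for the STAT element TTCCNGGAA, for its looser form TTCNNNGAA and for the E-box CACGTG, the element that BMAL1 binds with CLOCK. Each of these motifs reads the same on both strands. The stretches below are those of the 3 target genes, from the 5′ end of the window to the base before the first annotated exon of the gene that lies within the window, written 5′ to 3′ on the strand of the gene, with matches in capitals.
Socs3, minus strand, chr11:117969452-117969616: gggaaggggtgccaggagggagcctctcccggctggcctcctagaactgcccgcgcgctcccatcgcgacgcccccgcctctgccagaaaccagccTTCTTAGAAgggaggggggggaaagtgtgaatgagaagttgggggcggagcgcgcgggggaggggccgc
Pim3, plus strand, chr15:88861944-88862185: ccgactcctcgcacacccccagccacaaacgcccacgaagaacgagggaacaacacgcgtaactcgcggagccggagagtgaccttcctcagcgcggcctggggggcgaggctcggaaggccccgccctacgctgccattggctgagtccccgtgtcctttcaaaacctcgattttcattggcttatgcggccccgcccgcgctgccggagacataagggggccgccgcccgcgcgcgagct
Pim1, first start, plus strand, chr17:29490535-29490752: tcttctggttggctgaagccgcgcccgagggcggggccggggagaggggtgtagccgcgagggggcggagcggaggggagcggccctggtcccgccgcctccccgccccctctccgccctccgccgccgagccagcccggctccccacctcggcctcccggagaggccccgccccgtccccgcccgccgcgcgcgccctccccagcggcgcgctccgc
Pim1, second start, plus strand, chr17:29492835-29493036: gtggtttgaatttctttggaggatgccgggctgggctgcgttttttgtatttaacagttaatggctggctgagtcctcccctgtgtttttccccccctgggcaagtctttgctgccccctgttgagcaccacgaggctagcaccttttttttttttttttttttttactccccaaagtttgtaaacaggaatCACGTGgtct

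The looser STAT element was found in 1 of the 11 windows, that of *Socs3*, where it began 154 bases before the RefSeq start. That stretch lies in an intron of the annotated transcript Socs3-202. The E-box was also found in 1 window, that of the second *Pim1* start, 58 bases before it and in an intron of Pim1-201. TTCCNGGAA was in 0 of the 11. Of all 32851 windows of the RefSeq table, 8.30% held TTCNNNGAA, 7.15% the E-box and 1.15% TTCCNGGAA. The G+C content of the 11 windows ran from 49.0% to 81.3% with a median of 68.3%, against a median of 52.7% over all windows. These matches describe letters in short windows and say nothing of binding in these cells.

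*Pim3* was the most abundant of the 10 transcripts in both genotypes and *Lif* the least. In WT ESCs the mean FPKM ran from 90.3 for *Pim3* through 42.7 for *Pim1*, 42.1 for *Socs3*, 35.1 for *Socs2*, 27.9 for *Stat3*, 22.7 for *Ptpn11*, 12.5 for *Il6st*, 10.3 for *Jak1* and 9.25 for *Lifr* to 0.774 for *Lif*. The values of neighbours in this order did not overlap between the 2 WT libraries except for *Pim1* and *Socs3*. Among tested features with a symbol, the WT level of *Pim3* lay above 90.8% and that of *Lif* above 5.76%. The order in KO ESCs differed at 1 gene, *Socs2*, which stood above *Pim1* and *Socs3* by its mean, with values that overlapped those of *Pim1*, as those of *Pim1* did with *Socs3*.

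**Figure D1:**
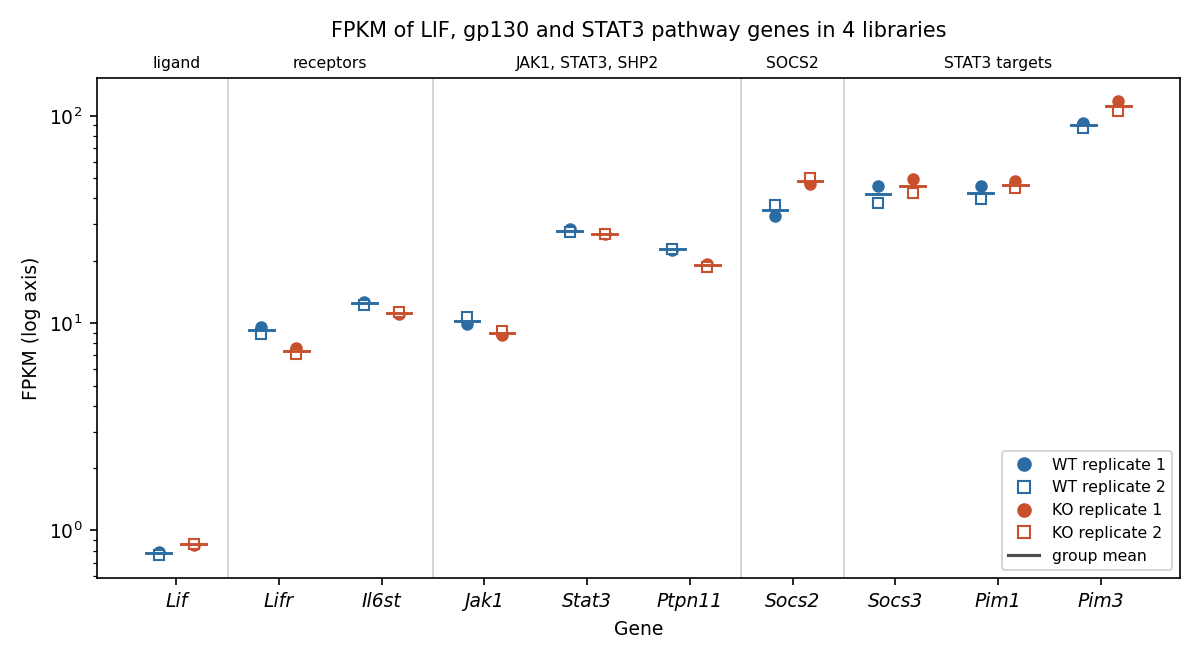
FPKM of the 10 genes on a log axis, by role, in WT (blue) and *Bmal1* KO (red) libraries, with replicate 1 filled, replicate 2 open and the group mean as a line. *Pim3* is highest and *Lif* lowest in every library, and the KO values of *Socs2* lie above its WT values.

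*Socs2* was higher in *Bmal1* KO ESCs, and the other 9 genes did not pass the test at an adjusted p under 0.05. With the replicate number as a block, *Lifr*, *Ptpn11* and *Pim3* passed too, and the features that passed rose from 1618 to 4052. The 5 receptor and signal transduction genes were each lower in both KO libraries than in both WT libraries, by 3.07% to 20.6% in the means. The 3 STAT3 target genes had estimates above WT. Each difference was smaller than 2-fold. KO and WT were compared in limma on log2(FPKM + 0.1), with Benjamini-Hochberg adjustment over 12990 features, of which 12.5% passed at an adjusted p under 0.05. The share with higher levels in KO was 6.85% and that with lower levels 5.60%. Of the 10 genes 1 passed, and 4 had an unadjusted p under 0.05, against 29.6% of all features. The groups did not overlap for 8 of the 10 genes, 3 with KO above WT and 5 with KO below it, against 58.8% of all features (27.0% above and 31.7% below). At an adjusted p under 0.05 with a change greater than 2-fold, limma called 0 of the 10 genes and 4.14% of all features, 2.72% with higher and 1.42% with lower levels in KO.

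Only 2 libraries stand on each side. The median SD between replicates over all features was 0.116 on the log2 scale, and the median log2 fold change of all features was -0.02. The median was 0.04 for the 10 genes, -0.20 for the 5 receptor and signal transduction genes and 0.14 for the 3 targets. The value for the 5 genes is that of *Jak1*, which is described below as uncertain. Without WT replicate 2 the median of the 10 genes was -0.035 and that of the targets 0.025, and without WT replicate 1 they were 0.066 and 0.276. The median of the 10 was also below 0 without KO replicate 1 (-0.008) and with a minimum of 1 FPKM (-0.045). RNA was taken from whole cultures, so fewer cells expressing a gene and less RNA per cell cannot be told apart.

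**Figure D2:**
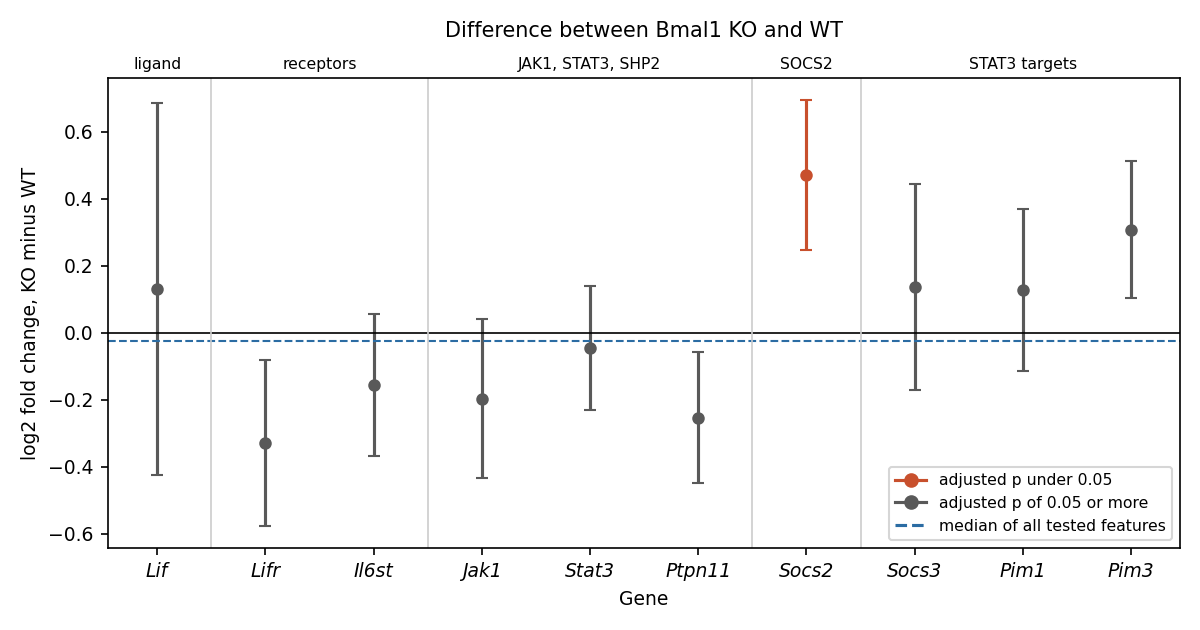
Difference of KO minus WT on the log2(FPKM + 0.1) scale for each gene, with 95% moderated intervals from limma and the median of all features dashed. The interval of *Socs2*, in red, lies above 0 from 0.25 to 0.70, and the 5 estimates from *Lifr* to *Ptpn11* lie below 0.

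*Lif*, which encodes the cytokine itself (ENSMUSG00000034394.14, plus strand of chromosome 11 from 4257568 to 4272514 of GRCm38), was barely expressed. In WT cells replicate 1 had 0.787 FPKM and replicate 2 had 0.760, and the KO values, in the same order as for all genes here, were 0.855 and 0.858. The KO values lay above the WT values, but the log2 fold change of 0.13 had a standard error of 0.23 and an interval from -0.43 to 0.69 (adjusted p = 0.736 from limma). Its level lies close to the minimum for the test, and its standard error was the largest of the 10. The recombinant LIF in the medium is not measured by RNA.

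*Lifr*, the LIF-binding receptor subunit (ENSMUSG00000054263.12, plus strand of chromosome 15 from 7129544 to 7197489), had 9.60 and 8.89 FPKM in WT and 7.57 and 7.11 in KO. Both KO values lay below both WT values. The log2 fold change was -0.33 (standard error 0.10, interval -0.58 to -0.08, adjusted p = 0.0934 from limma), the largest negative estimate of the 10 genes. The interval before adjustment excludes 0, yet the gene did not pass the adjustment over all features. The feature covers only part of the annotated gene, which runs from 7090614 to 7197489.

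*Il6st*, which encodes the shared signalling subunit gp130 (ENSMUSG00000021756.12, plus strand of chromosome 13 from 112464070 to 112509348), had 12.6 and 12.3 FPKM in WT and 11.1 and 11.3 in KO. The groups were apart by a small step. Its log2 fold change was -0.16 (standard error 0.09, interval -0.37 to 0.06, adjusted p = 0.288 from limma).

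*Jak1*, the receptor-associated tyrosine kinase (ENSMUSG00000028530.14, minus strand of chromosome 4), had 9.94 and 10.7 FPKM in WT and 8.78 and 9.19 in KO. Again the KO values lay below the WT values, with a log2 fold change of -0.20 (standard error 0.10, interval -0.43 to 0.04, adjusted p = 0.236 from limma). Its value is uncertain, because the files give *Jak1* and its neighbour *Raver2* the same coordinates, from 101069038 to 101265282, whereas the annotation places *Jak1* from 101152367 to 101265282.

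*Stat3*, the transcription factor on which the pathway converges (ENSMUSG00000004040.16, minus strand of chromosome 11 from 100886810 to 100939511), had 28.4 and 27.5 FPKM in WT and 27.1 and 27.1 in KO. The difference was the smallest of the 10, at -0.05 on the log2 scale with a standard error of 0.08 (limma, adjusted p = 0.730). Its interval ran from -0.23 to 0.14, so a fall to 0.852-fold or a rise to 1.10-fold lies within it. STAT3 is activated by phosphorylation, which RNA-seq does not measure.

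*Ptpn11*, the gene for the phosphatase SHP2 (ENSMUSG00000043733.14, minus strand of chromosome 5 from 121130533 to 121191397), had 22.5 and 22.8 FPKM in WT and 19.4 and 18.6 in KO. The gap between the groups was wider than the spread within either. The log2 fold change was -0.25 (standard error 0.08, interval -0.45 to -0.06, adjusted p = 0.0983 from limma). Among the 5 receptor and signal transduction genes limma thus passed 0 at an adjusted p under 0.05, and 2, *Lifr* and *Ptpn11*, had an unadjusted p under 0.05.

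*Socs2* encodes a suppressor of cytokine signalling best known as a feedback inhibitor of growth hormone signalling through STAT5, and it is also induced by LIF. It lies on the minus strand of chromosome 10 (ENSMUSG00000020027.18), where the feature from 95411490 to 95417226 covers only part of the annotated gene, which runs from 95385362 to 95417180. It had 32.9 and 37.2 FPKM in WT and 47.2 and 50.03 in KO. The lowest KO value exceeded the highest WT value. The rise was 1.39-fold in the means, a log2 fold change of 0.47 (standard error 0.09, interval 0.25 to 0.70, adjusted p = 0.0279 from limma). The adjusted p was 0.0554 without WT replicate 1 and 0.0629 without KO replicate 2, with log2 fold changes of 0.39 and 0.43, and it also missed 0.05 with no filter on low values (0.0536) and with no trend in the variance model (0.0771).

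*Socs3*, the main feedback inhibitor of gp130 signalling (ENSMUSG00000053113.3, minus strand of chromosome 11 from 117966079 to 117970124), had 46.1 and 38.1 FPKM in WT and 49.7 and 42.7 in KO. The groups overlapped, and in each genotype replicate 1 was the higher library. The log2 fold change of 0.14 (standard error 0.13, interval -0.17 to 0.45, adjusted p = 0.513 from limma) became -0.002 without WT replicate 2.

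*Pim1*, which encodes a serine/threonine kinase that promotes survival (ENSMUSG00000024014.8, plus strand of chromosome 17 from 29490063 to 29496112), had 45.7 and 39.6 FPKM in WT and 48.4 and 44.7 in KO. It had the same arrangement of libraries as *Socs3*, with overlapping groups. The log2 fold change was 0.13 (standard error 0.10, interval -0.11 to 0.37, adjusted p = 0.437 from limma), and it was 0.03 without WT replicate 2 and 0.23 without WT replicate 1.

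*Pim3*, a related kinase gene (ENSMUSG00000035828.11, plus strand of chromosome 15), had 92.6 and 88.0 FPKM in WT and 118 and 106 in KO. Here the groups did not overlap, and the means differed 1.24-fold. The log2 fold change was 0.31 (standard error 0.08, interval 0.10 to 0.51), with an adjusted p of 0.0690 from limma. The feature runs from 88854730 to 88866023 and is longer than the annotated gene, from 88862186 to 88865726. Of the 3 target genes limma thus passed 0, and 1, *Pim3*, had an unadjusted p under 0.05.

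**Figure D3:**
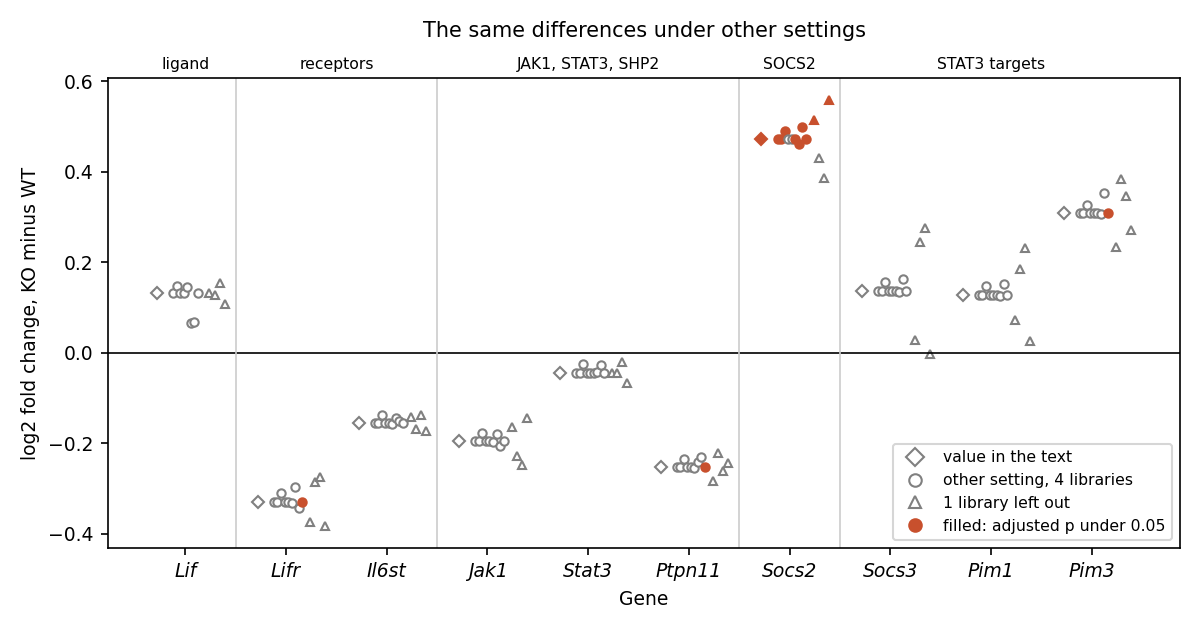
Log2 fold change of KO minus WT for each gene as given in the text (diamonds), under the other settings with all 4 libraries (circles) and with 1 library left out (triangles), filled where the adjusted p was under 0.05. The estimates of *Socs3* run from -0.002 to 0.28 as libraries are left out, while those of *Socs2* stay between 0.39 and 0.56.

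Lists of genes around the pathway, 83 genes in all with the 10 included, place these values in context. Of the 60 tested genes beyond the 10, 4 passed at an adjusted p under 0.05 (6.67%), against 12.5% of all features. These were 2 genes in each direction, *Cntfr* and *Tfcp2l1*, which rose, and *Braf* and *Klf4*, which fell. None of the 60 was called at more than 2-fold in limma, against 4.14% of all features. Of the 60, 13 had an unadjusted p under 0.05, against 29.6% of all features. The median log2 fold change of the 60 was -0.02, and that of all features was also -0.02.

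Among other receptors that use gp130, 6 of 8 genes were tested, with a median log2 fold change of -0.13, and 1 rose. *Cntfr* encodes the ligand-binding subunit of the ciliary neurotrophic factor receptor, which is anchored in the membrane and signals with gp130 and LIFR. It had 10.7 and 9.38 FPKM in WT and 18.2 and 17.2 in KO. The KO values were thus well above the WT values, by 0.81 on the log2 scale with a standard error of 0.10 (limma, adjusted p = 0.00951), and the gene passed under each of the 13 other settings. *Osmr* and *Il6ra*, which encode receptors for oncostatin M and interleukin-6, were below 0.5 FPKM and were not tested.

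Of the 9 ligands of the family, 5 had a feature of their own, and 3 shared one with a neighbour, so their levels are unknown. *Il6* was listed at 0 in 3 libraries and at 0.0540 FPKM in WT replicate 2, and *Osm* ran from 0.0467 to 0.279 FPKM. Of the ligands 2 had features of their own that passed the minimum, *Lif* and *Ctf1*, with 0 at an adjusted p under 0.05 in limma and 0 at an unadjusted p under 0.05. *Ctf1*, the cardiotrophin gene, had 3.51 and 3.28 FPKM in WT and 5.35 and 3.68 in KO (log2 fold change 0.38, standard error 0.20, adjusted p = 0.259). Its adjusted p was 0.0477 without KO replicate 2.

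Of the JAK kinases 3 were tested and of the STAT factors 7, with median log2 fold changes of -0.11 and 0.03. Limma passed 0 of either at an adjusted p under 0.05. At an unadjusted p under 0.05 it gave 0 kinases and 1 STAT factor, against 29.6% of all features. *Tyk2*, a JAK family kinase, had 12.1 and 9.80 FPKM in WT and 11.0 and 9.17 in KO, so the groups overlapped (adjusted p = 0.646). *Stat6*, a mediator of interleukin-4 signals, had 12.1 and 12.6 FPKM in WT and 12.4 and 11.4 in KO, again with overlap (adjusted p = 0.771).

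**Figure D4:**
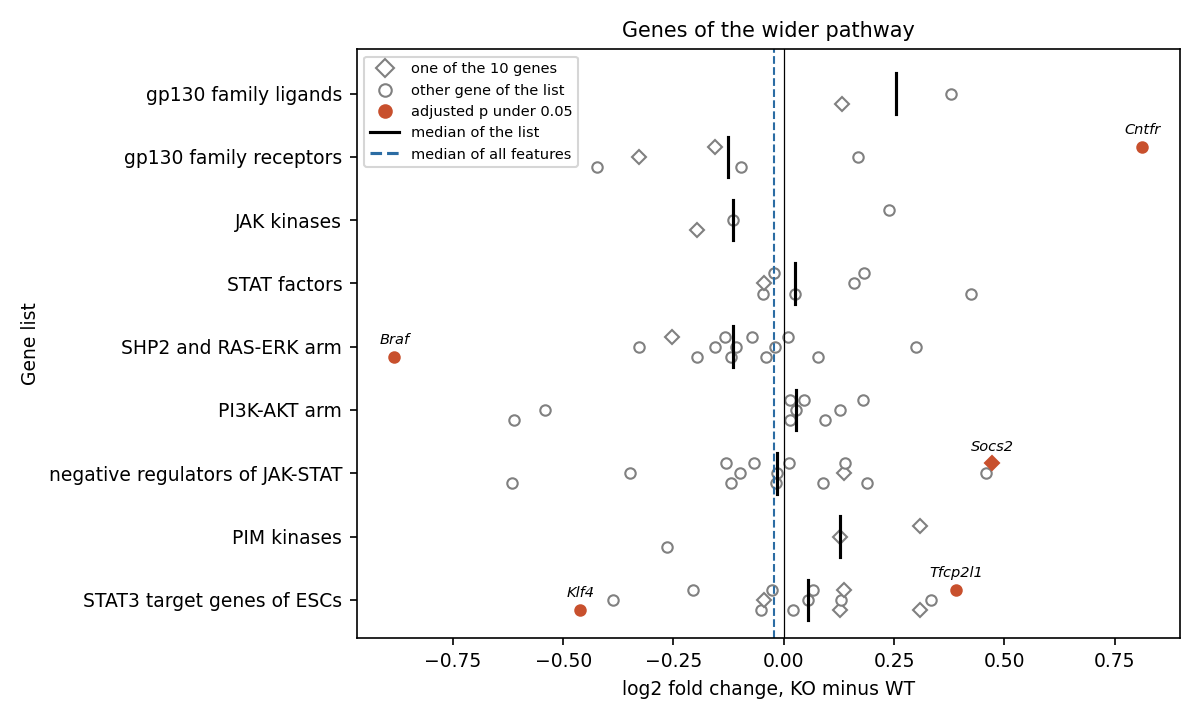
Log2 fold change of KO minus WT for each tested gene of 9 lists, with the 10 genes of the pathway as diamonds, genes at an adjusted p under 0.05 in red and list medians as black bars. *Cntfr*, *Socs2* and *Tfcp2l1* are the red points above 0, and *Braf* and *Klf4* those below, and no list median lies further than 0.26 from 0.

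For SHP2 and the RAS-ERK arm, 14 genes were tested, *Ptpn11* included, with a median of -0.11, and 1 fell. *Braf*, the RAF kinase gene, had 8.60 and 10.2 FPKM in WT and 4.95 and 5.13 in KO, so the groups lay far apart. On the log2 scale it differed by -0.88 with a standard error of 0.12 (limma, adjusted p = 0.0114), and it passed under each of the 13 other settings. In the PI3K-AKT arm 9 genes were tested with a median of 0.03. Limma passed 0 genes of the arm, with 2 at an unadjusted p under 0.05, against 29.6% of all features. Its most abundant members were *Akt2*, with 33.5 and 28.6 FPKM in WT and 34.3 and 29.8 in KO, and *Pik3r2*, with 28.5 and 26.3 in WT and 31.1 and 27.5 in KO. Both overlapped between the genotypes.

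Of 15 negative regulators of JAK-STAT signalling, all tested, *Socs2* was the 1 that passed, and their median log2 fold change was -0.02. Their estimates ran from -0.62, which did not pass, to the 0.47 of *Socs2*. In limma 3 of the 15 had an unadjusted p under 0.05, against 29.6% of all features. The 3 PIM kinase genes had a median of 0.13, which is the value of *Pim1*, and their estimates lay on both sides of 0. In a list of 16 STAT3 target genes known in ESCs, 15 were tested, with *Socs3*, *Pim1*, *Pim3* and *Stat3* included. Of the 15, 1 rose and 1 fell, with a median of 0.06. *Tfcp2l1*, a transcription factor through which STAT3 supports self-renewal, had 38.3 and 36.9 FPKM in WT and 49.8 and 48.8 in KO (limma, log2 fold change 0.39 with a standard error of 0.07, adjusted p = 0.0259). Its adjusted p was 0.0768 without WT replicate 2, 0.0829 without KO replicate 1, 0.0629 without KO replicate 2 and 0.0743 with no trend. *Klf4*, another transcription factor gene that STAT3 activates, had 58.4 and 55.0 FPKM in WT and 41.3 and 40.9 in KO (log2 fold change -0.46, standard error 0.08, adjusted p = 0.0177), and 0.0582 with no trend. The 2 that passed of 15 stand against 12.5% of all features. In this list 5 genes had an unadjusted p under 0.05, against 29.6% of all features. The KO values lay above the WT values for 4 genes, against 27.0% of all features, and below them for 4, against 31.7%.

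The labels were checked against markers. *Arntl* had 6.05 and 6.29 FPKM in WT and 5.95 and 5.92 in KO, and since a short deletion need not lower the level of a transcript, this does not check the genotype. The summed FPKM of 9 ESC markers, such as *Pou5f1* and *Dppa5a*, ran from 6960 to 7138 in WT and from 6393 to 6822 in KO. Of these 9, 3 passed the test, against 12.5% of all features, and 6 had an unadjusted p under 0.05, against 29.6%. Their median log2 fold change was -0.18. *Nanog*, *Sox2* and *Zfp42*, with estimates of -0.18, -0.26 and -0.21, were lower in both KO libraries and did not pass. *Pou5f1* and *Dppa5a* overlapped between the genotypes, and a further marker that did not pass was higher in both KO libraries. Over the 9 markers, the KO values lay above the WT values for 2, against 27.0% of all features. They lay below them for 5, against 31.7%. Of those that passed, 1 rose (*Fgf4*, 72.4 and 72.3 FPKM in WT and 86.9 and 90.8 in KO) and 2 fell (*Tdgf1*, from a mean of 439 to 341, and *Utf1*, from 664 to 494). The calls of these 3 markers were lost on leaving out a library: *Fgf4* whichever of the 4 was left out, *Tdgf1* without WT replicate 2 or either KO replicate, and *Utf1* without WT replicate 1 or KO replicate 2. The adjusted p then ran from 0.0806 to 0.197. With all 4 libraries the 3 calls were also lost with no filter and with no trend, those of *Tdgf1* and *Utf1* with quantile normalization, that of *Utf1* with median-of-ratios scaling and that of *Fgf4* with a pseudocount of 0.01. Fibroblast markers with a feature were 5 of 7. They summed to 1.67 to 1.93 FPKM in WT and 2.26 to 2.93 in KO, most of it *Thy1* (log2 fold change 0.55, which did not pass), while the collagen genes *Col1a1*, *Col1a2* and *Col3a1* stayed at or under 0.217 FPKM and *Dcn* was listed at 0 in 3 libraries. Primitive endoderm markers with a feature, 5 of 6, summed to 0.780 to 0.852 FPKM in WT and 0.769 to 0.853 in KO, and the only one tested, *Gata4*, did not pass (limma, adjusted p = 0.653). The part of these shifts in the pathway genes was not tested.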

How the data were processed

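Ribosome-depleted RNA of 2 WT and 2 *Bmal1* KO ESC libraries was analysed. Per the labels and methods, the authors aligned reads to GRCm38 with TopHat2 2.1.1 and Bowtie2 2.3.0, supplied known transcripts, and deposited 1 FPKM per feature and library from Cufflinks 2.2.1. Without read counts, the depth behind a value is unknown, and intervals cover only the spread between libraries. FPKM of multi-gene or overlapping features depend on how Cufflinks divided the reads.

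FPKM were analysed as log2(FPKM + 0.1) in limma 3.58.1 under R 4.3.3, for 12990 features with a mean of at least 0.5 (6655 were left out), with a variance trend and Benjamini-Hochberg adjustment. A fold change on this scale understates changes of low genes. Starts in the files count from 0, so 1 was added. Genes were annotated with GENCODE M21 (GRCm38). Where a symbol had several features the most abundant was used, and features with several symbols were left out of list counts. Python 3.11.15 was used for the other steps. The genes and lists were chosen with earlier results of these data known. Named are the 10 genes and, from each list, at most the 3 largest changes at an adjusted p under 0.05, or otherwise the 2 most abundant genes. Other ligand, receptor and marker genes named with their levels were chosen after their values were seen. The values of 1 further list gene are not reported here. Alternatives were a pseudocount of 1 or 0.01, no filter or a minimum of 1, scaling by quantiles or by the median of ratios, a block for the replicate number, no variance trend, FPKM summed by symbol, and leaving out each library.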

Additional observations from a re-analysis of the deposited data

How the results depend on the processing

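Over the alternatives the 10 genes kept the sign of their log2 fold change, except *Socs3*, which went from 0.14 to -0.002 without WT replicate 2. The number of the 10 at an adjusted p under 0.05 was 1, and 0 with no filter on low values or with no trend in the variance; it ranged from 0 to 1 as libraries were left out. *Socs2* lost its call there, with an unchanged log2 fold change of 0.47 for no filter and no trend, and with a range of 0.39 to 0.56 without 1 library. The replicate numbers come from the labels alone, which do not say whether equal numbers were processed together. Across features, the differences between replicates 1 and 2 correlated between WT and KO at 0.0712 (Pearson) and 0.387 (Spearman). These values do not settle whether the numbers pair the libraries, and the main fit did not pair them. With the replicate number as a block, 4 of the 10 genes passed: *Lifr* (log2 fold change -0.33, adjusted p = 0.0231 from limma), *Ptpn11* (-0.25, 0.0205), *Socs2* (0.47, 0.00391) and *Pim3* (0.31, 0.00775), while *Socs3* (0.0542) and *Pim1* (0.0768) did not. The block raised the features of any size at an adjusted p under 0.05 from 1618 to 4052. Features called over 2-fold were 353 higher and 185 lower in KO, 392 and 240 with the block, and 146 and 85 with a pseudocount of 1. They ranged from 305 to 497 and from 257 to 323 without 1 library, where the lone library is assumed to vary like the others. The median of the 10 genes was 0.04, and -0.045 when the minimum was raised to 1, which drops *Lif*; it ranged from -0.035 to 0.066 without 1 library. The median of the 5 receptor and signal transduction genes was -0.20, -0.18 with a pseudocount of 1 or median-of-ratios scaling, and -0.25 to -0.16 without 1 library, and that of the targets 0.14, with 0.03 to 0.28 without 1 library. The limits are the 2 libraries a group and 1 clone, so genotype and clone cannot be told apart.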

Other observations

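Some cytokine and adaptor genes of the wider pathway share a feature with a neighbour and have no value of their own, so the change cannot be assigned to either gene. The joint feature of *Il11*, an interleukin that signals through gp130, and *Tmem238* had 35.3 and 33.5 FPKM in WT and 23.0 and 23.4 in KO, lower in KO by a log2 fold change of -0.57 with a standard error of 0.08 (limma, adjusted p = 0.0113). The joint feature of *Pygo2* and *Shc1*, an adaptor between receptors and RAS, had 49.98 and 43.6 FPKM in WT and 65.1 and 60.03 in KO, a difference of 0.42 on the log2 scale with a standard error of 0.10 (limma, adjusted p = 0.0446). The features of *Clcf1* with *Pold4*, of *Cntf* with *Zfp91* and of *Jak3* with *Insl3* had log2 fold changes of 0.42, 0.04 and 0.29 and did not pass the test.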
